A study of Mus musculus with 2 samples.

Results

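The genes of MHC class I antigen presentation, 8 in all, were followed across the cells sorted from mouse brain. They were taken by name from the deposited gene list, and all 8 were found among its 32285 genes. H2-D1 and H2-K1 encode the classical class I heavy chains, B2m the light chain that every heavy chain needs to reach the cell surface, and H2-T23 the nonclassical chain Qa-1. Tap1 and Tap2 form the transporter that brings peptides into the endoplasmic reticulum, Tapbp encodes tapasin, which holds empty heavy chains at that transporter, and Nlrc5 is the transactivator of class I genes.

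Class I molecules carry fragments of the proteins made inside a cell to its surface, where CD8 T cells and natural killer (NK) cells read them. Nearly all nucleated cells make them, and interferons raise the heavy chains, B2m, the transporter and the immunoproteasome together. In the resting brain class I is low, microglia being one of the cell types that carry it.

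The study compared a Disc1 LI/LI library with a Disc1 WT/WT library. Disc1 LI is a locus impairment of Disc1, which encodes a scaffold protein, and LI/LI mice are homozygous for it. For each genotype the brains of 6 male littermates of 23 weeks were pooled, dissociated with actinomycin D present, sorted as CD45low CD11b+ cells and sequenced as 1 single-cell library, so that no animal can be told apart and no genotype has a replicate. The strain background is not given in the sources used here. H2-D1 and H2-K1 differ in sequence between strains and were counted against the reference alleles, so the part of any mismatch in their counts, and in ratios between them, was not tested. Levels are given as UMIs (counted RNA molecules) per 1000000 UMIs of a class of cells, written CPM. Differences between the genotypes are given as values with 95% intervals for counting error only, and no test between genotypes was possible.

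Disc1 was counted 642 times in the Disc1 WT/WT library, at 19.1 CPM, and 22 times in the Disc1 LI/LI library, at 0.461 CPM. After cells with under 200 genes or over 10% mitochondrial UMIs were left out, 7032 and 7817 cells remained (Disc1 WT/WT first, here and below). Among all deposited barcodes, 12 were found in both libraries. Microglia (at least 0.5% of UMIs from P2ry12, Gpr34, Tmem119, Siglech, Fcrls and Olfml3, and under 1% from S100a8 and S100a9) made up 6180 and 1950 of these cells. Neutrophils (at least 3% of UMIs from S100a8 and S100a9) made up 116 and 3622, and other cells 736 and 2245. The samples were labelled as microglia and sorted as immune cells, and 24.9% of the Disc1 LI/LI cells met the microglia rule, against 87.9% in Disc1 WT/WT. The deposited barcodes outnumber the cells that the study's methods count, and the study's own selection was not rebuilt here. All 12 microglia markers that the rule did not use were detected in the microglia of both libraries, at summed levels of 61158 and 70130 CPM. The Disc1 WT/WT neutrophils held microglia markers at 20.5% of the microglia level, the Disc1 LI/LI neutrophils at 4.12%. In microglia the median of 12 neutrophil markers was 0.0233% of the neutrophil level in the first library and 0.839% in the second. Among the other cells the summed microglia markers stood at 24530 and 5626 CPM.

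Of the 8 genes, 6 lie on chromosome 17, which holds the mouse MHC, in the GRCm38 (mm10) annotation of GENCODE. H2-K1 is at chr17:33996017-34000347 on the minus strand and H2-D1 at chr17:35262730-35267499 on the plus strand, on either side of the class II genes. Tapbp (chr17:33915899-33929292), Tap1 (chr17:34187553-34197225) and Tap2 (chr17:34203527-34216321) are on the plus strand, and H2-T23 (chr17:36029773-36032855) is on the minus strand. B2m is at chr2:122147686-122153083 and Nlrc5 at chr8:94434356-94527272, both on the plus strand. Class I genes resemble each other, so windows of 90 bases from the last 500 bases of each coding transcript were looked up in all other transcripts. Of the H2-D1 windows 0 of 812, and of the H2-K1 windows 0.151%, were shared with another gene, against 13.4% of the H2-T23 windows, whose counts are therefore the less certain.

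The stretches before the H2-D1 and H2-K1 start sites are shown because these had the largest log2 ratios between the microglia libraries among the members with at least 50 CPM. In both, capitals mark a match to GGGNNTTCC (a form bound by NF-kappa-B) and a match to TTTCNNTT (the core bound by interferon regulatory factors). Matches were searched on both strands in RefSeq sequence of build GRCm38.p6. The H2-D1 stretch is chr17:35262923-35262951 on the plus strand, from 171 to 143 bases before the RefSeq start. The GENCODE span of H2-D1, given above, begins before that RefSeq start, so the stretch lies inside the span. The H2-K1 stretch is chr17:34000430-34000458 on the minus strand, from 111 to 83 bases before its RefSeq start.
H2-D1: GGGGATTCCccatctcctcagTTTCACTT
H2-K1: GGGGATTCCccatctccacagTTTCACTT
The 2 stretches are identical at 28 of 29 positions. Of 32851 promoter windows of 250 bases, 21.3% hold TTTCNNTT, 4.98% hold GGGNNTTCC and 1.04% hold both. The longer windows before the H2-K1 start (chr17:34000348-34000597, minus strand) and the B2m start (chr2:122147437-122147685, plus strand) are also shown. The B2m window held a match to TTTCNNTT on the opposite strand and none to GGGNNTTCC. Longer forms bound by NF-kappa-B were not searched, so the search does not show that B2m lacks a site.
H2-K1: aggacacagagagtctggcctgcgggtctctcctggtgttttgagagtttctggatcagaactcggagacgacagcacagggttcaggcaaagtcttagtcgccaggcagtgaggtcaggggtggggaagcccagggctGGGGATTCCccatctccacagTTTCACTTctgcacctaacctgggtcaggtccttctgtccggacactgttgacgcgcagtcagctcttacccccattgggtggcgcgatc
B2m: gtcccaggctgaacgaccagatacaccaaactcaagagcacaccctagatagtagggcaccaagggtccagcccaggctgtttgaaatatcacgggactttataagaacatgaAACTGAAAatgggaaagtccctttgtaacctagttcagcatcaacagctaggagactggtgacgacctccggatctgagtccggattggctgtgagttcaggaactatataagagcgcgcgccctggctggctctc
Promoter entries existed for 6 of the 8 genes. The Tapbp window lay inside the GENCODE span of its gene, and the windows of H2-T23 and Tap1 overlapped theirs. H2-T23 had 2 matches to TTTCNNTT, and the windows of Tap1 and Tapbp held neither motif. These matches describe the letters only.

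Levels are followed by the exact 95% Poisson interval in parentheses. In microglia H2-D1 stood at 456 (448 to 463) in Disc1 WT/WT and 606 (589 to 623) in Disc1 LI/LI. H2-K1 stood at 368 (361 to 375) and 496 (481 to 511), and B2m at 1075 (1063 to 1087) and 1218 (1194 to 1242). For each of these 3 genes the Disc1 LI/LI level was the higher and the intervals did not overlap.

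In neutrophils, phagocytes of blood and marrow, H2-D1 was counted at 943 (870.5 to 1019) and 965 (952 to 979) and H2-K1 at 249 (212 to 290) and 238 (232 to 245). B2m was at 583 (527 to 644) and 427 (419 to 436). Over all neutrophils H2-D1 was thus at about the same level in the 2 libraries, whereas B2m was lower in Disc1 LI/LI. The contrast was smaller in neutrophils with little microglia RNA, as given below.

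In the other cells H2-D1 was at 1420 (1381 to 1460) and 1421 (1404 to 1439), H2-K1 at 1077 (1043 to 1112) and 854 (841 to 868) and B2m at 1442 (1402 to 1482) and 1055 (1040 to 1070). These cells carried the highest H2-D1 and H2-K1 of the 3 classes in both libraries.

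The remaining genes were counted less. H2-T23 stood at 90.7 and 95.5 in microglia, 60.0 and 52.4 in neutrophils and 148 and 114 in other cells. Tapbp was at 115 and 122 in microglia, 60.0 and 57.5 in neutrophils and 117 and 99.1 in other cells, and Tap2 at 61.9 and 60.7, 37.5 and 24.9, and 56.3 and 39.2. Tap1 stayed under 50 CPM in every class, at 21.0 and 25.1 in microglia, 21.0 and 16.4 in neutrophils and 49.8 and 47.7 in other cells. Nlrc5 was close to the detection limit, with 49 and 8 UMIs in all microglia (1.67 and 0.979 CPM), 2 and 95 UMIs in neutrophils and 28 and 75 in other cells. Between the genotypes its interval included 0 in microglia (-0.77, -2.06 to 0.32) and neutrophils. In other cells Nlrc5 was at -0.92 (-1.56 to -0.24), wholly below 0. Against the other cells of the same library it was lower in microglia, at log2 ratios of -2.25 (-2.95 to -1.52) and -2.09 (-3.36 to -1.04).

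**Figure D1:**
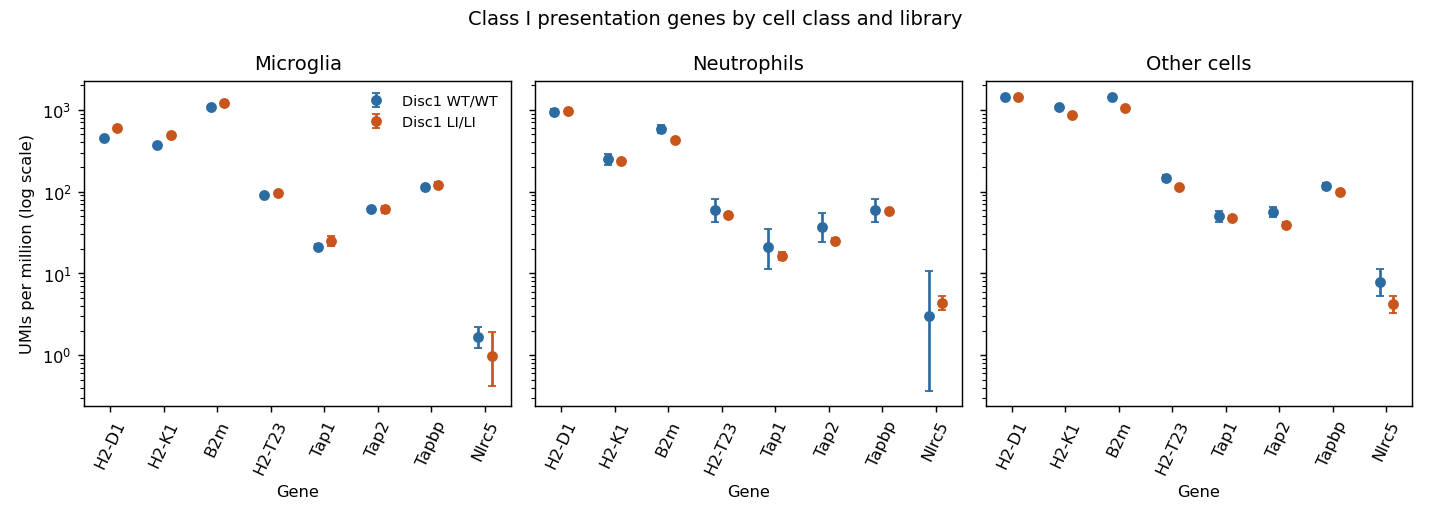
Level of each of the 8 genes (CPM, log axis) in microglia, neutrophils and other cells of the Disc1 WT/WT (blue) and Disc1 LI/LI (orange) library. Points are the summed level of the class and bars the exact 95% Poisson interval. H2-D1 lay at 456 and 606 in microglia and at 943 and 965 in neutrophils, whereas B2m lay at 1075 and 1218 in microglia and at 583 and 427 in neutrophils.

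When every cell was thinned to 1000 UMIs, 33.8% (exact binomial interval 32.6 to 35.0) of Disc1 WT/WT microglia and 41.4% (39.2 to 43.7) of Disc1 LI/LI microglia held a H2-D1 UMI. Without thinning the shares were 74.1% and 79.5%, at median depths of 4271 and 3788 UMIs. For H2-K1 the thinned shares were 29.3% and 35.1%, and for B2m 63.4% and 67.5%. The difference was thus seen in the share of cells as well as in the summed level. In the thinned microglia the variance of H2-D1 was 1.21 and 1.36 times its mean and that of Tap2 1.00 times in both libraries. No cell type sorted here is known to lack class I altogether, so none gives a background level. In the 3 and 10 hemoglobin-rich cells H2-D1 was at 52.4 (6.34 to 189) and 115 (57.3 to 205) CPM and H2-K1 at 26.2 and 41.8, under the levels in microglia. Hemoglobin made up at least 10% of UMIs in these cells by the gate, which lowers the CPM of every other gene.

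Between the genotypes, the log2 ratio of the Disc1 LI/LI level to the Disc1 WT/WT level in microglia of H2-K1 was 0.43 (0.38 to 0.48), that of H2-D1 0.41 (0.36 to 0.46) and that of B2m 0.18 (0.15 to 0.21). H2-T23 was at 0.07 (-0.04 to 0.19), Tapbp at 0.08 (-0.02 to 0.19) and Tap2 at -0.03 (-0.18 to 0.12), all with intervals that include 0. Tap1, left out of the counts for its low level, was at 0.25 (0.02 to 0.48). Of the 6 members with at least 50 CPM in a library, 0 passed a fold of 1.5 in either direction, where 1.27% of all 3556 genes passed it upward and 13.1% downward. The interval lay wholly above 0 for 3 of the 6, against 28.7% of all genes, and wholly below 0 for 0 of the 6, against 51.0%.

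The median of the 6 genes was 0.13 and that of all genes -0.12. Among the 3556 genes H2-K1 ranked 105 and H2-D1 121 from the highest ratio, B2m 726 and Tapbp 1107. The ratio moved with gene length: its median was 0.20 in the 889 shortest genes (up to 8995 bases), in which 66.9% of intervals lay above 0, and -0.47 in the 889 longest. H2-D1, H2-K1, B2m and H2-T23 belong to the shortest. Among these 889 genes H2-K1 ranked 80 and H2-D1 92, whereas B2m ranked 479, below their median. The part of gene length in these ratios was not tested beyond these values.

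The H2-D1 and H2-K1 ratios in microglia kept their sign in all 17 alternatives tried, between 0.37 and 0.54 for H2-D1 and between 0.34 and 0.56 for H2-K1. B2m lay between 0.18 and 0.31. The alternatives that changed only neutrophils, by a limit of 5% for S100a8 and S100a9 or by microglia markers, could not move these values. Where S100a8 and S100a9 were kept under 0.1% of UMIs, to remove cells with neutrophil RNA, H2-D1 was at 0.43 and H2-K1 at 0.44. Cd74, the class II invariant chain and a marker of other cells, was also higher in the Disc1 LI/LI microglia, at 416 against 260 CPM. Microglia without any UMI of class II, T cell, NK cell, B cell, border macrophage or monocyte markers numbered 3272 and 886 (52.9% and 45.4%). Among them H2-D1 was at 0.40 and H2-K1 at 0.44. The part of RNA from other cells in these ratios was not tested.

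**Figure D2:**
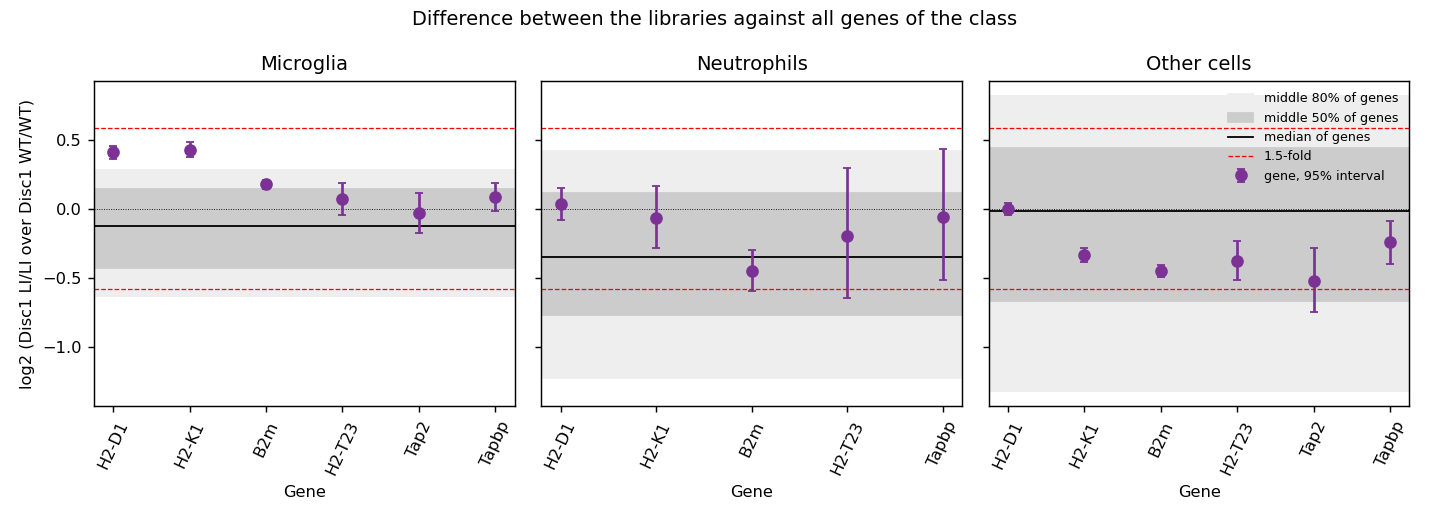
log2 ratio of the Disc1 LI/LI level to the Disc1 WT/WT level for each gene with at least 50 CPM in a library of the class, with its 95% counting interval. Grey bands hold the middle 50% and 80% of all genes of the class, the solid line is their median (-0.12 in microglia, -0.35 in neutrophils, -0.02 in other cells) and dashed red lines mark a fold of 1.5. In microglia H2-D1 (0.41) and H2-K1 (0.43) stood above the 80% band, and in the other classes each gene lay inside it.

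In neutrophils B2m was at -0.45 (-0.59 to -0.30) between the libraries, the 1 of 5 members with an interval wholly below 0, against 48.8% of all genes. H2-D1 was at 0.03 (-0.08 to 0.15), H2-K1 at -0.06 (-0.29 to 0.17), Tapbp at -0.06 (-0.52 to 0.43) and H2-T23 at -0.20 (-0.65 to 0.30). None passed a fold of 1.5, where 6.17% of 2433 genes passed it upward and 35.2% downward. The members' median was -0.06 and that of all genes -0.35, so B2m lay near the middle of the genes in this class.

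The B2m difference was smaller in neutrophils with less microglia RNA. In the 89 and 3444 neutrophils with under 0.1% of UMIs from the microglia rule genes, whose microglia markers stood at 2.03% and 1.21% of the microglia level, B2m was at 465 (400 to 537) and 403 (394 to 412), a log2 ratio of -0.21. There H2-D1 was at 1083 (983 to 1191) and 973 (959 to 987), a log2 ratio of -0.15. H2-K1 was at 207 (165 to 257) and 228 (222 to 235). The limit of 0.1% also changed which neutrophils were kept, and the part of microglia RNA in the B2m difference was not tested. With TMM scaling, which matches the bulk of the genes, the B2m ratio in all neutrophils was 0.10, with the opposite sign.

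In other cells 5 of the 6 members had an interval wholly below 0, against 44.2% of all 3256 genes. B2m was at -0.45 (-0.50 to -0.41), H2-K1 at -0.33 (-0.39 to -0.28), H2-T23 at -0.38, Tap2 at -0.52 and Tapbp at -0.24, and H2-D1 at 0.00 (-0.04 to 0.04). None passed a fold of 1.5, where 17.6% of genes passed it upward and 27.9% downward. TMM scaling turned the signs of B2m, H2-K1, H2-T23 and Tapbp, to between 0.03 and 0.24. With microglia markers of at least 1% of UMIs as the rule, which moves cells between the classes, H2-D1 in other cells was at 0.63, past the fold of 1.5, H2-K1 at 0.34 and H2-T23 at 0.0070.

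The kinds of other cells differed between the libraries. Gates on markers gave 272 and 330 class II-high antigen-presenting cells, 36 and 1121 classical monocytes, 57 and 114 T cells, 15 and 175 B cells, 98 and 17 border macrophages, 11 and 38 NK cells, and 33 nonclassical monocytes in each library. Within class II-high cells H2-K1 was at -0.03 (-0.12 to 0.06), B2m at -0.23 (-0.31 to -0.16) and H2-D1 at 0.21 (0.14 to 0.29). Within classical monocytes H2-K1 was at 0.10 (-0.09 to 0.30), B2m at 0.02 (-0.14 to 0.18) and H2-D1 at -0.08 (-0.20 to 0.05). Within T cells H2-K1 was at 0.00 (-0.12 to 0.13), B2m at -0.20 (-0.35 to -0.04) and H2-D1 at 0.07 (-0.07 to 0.21). The H2-K1 difference of the pooled class was thus not detected within these 3 kinds. On fewer cells, H2-K1 was at -0.37 (-0.70 to -0.03) within B cells and -0.30 (-0.85 to 0.20) within border macrophages, in the pooled direction. It was at 0.40 (0.13 to 0.68) within nonclassical monocytes and 0.86 (0.56 to 1.18) within NK cells, in the opposite one.

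Levels by kind of cell had a wide range. Nonclassical monocytes, which patrol vessels, held H2-D1 at 2955 and 3478, H2-K1 at 2166 and 2868 and B2m at 2733 and 2880 CPM. T cells held H2-K1 at 2458 and 2464, and NK cells at 1934 (1577 to 2347) and 3519 (3228 to 3829) on 11 and 38 cells. T cells, NK cells and nonclassical monocytes thus stood at the upper end for H2-K1. Microglia, granulocyte progenitors (370 and 517) and neutrophils stood at the lower end. Classical monocytes, the blood cells recruited in inflammation, held H2-D1 at 1552 and 1469 and H2-K1 at 651 and 700. Border macrophages, the resident macrophages of meninges and vessels, held H2-D1 at 1346 (1223 to 1477) and 942 (673 to 1283) and H2-K1 at 1018 and 824. Class II-high cells held H2-D1 at 1603 and 1858, and B cells at 1349 and 1208. In the order of H2-D1 levels in Disc1 WT/WT, classical monocytes and class II-high cells had overlapping intervals, as had border macrophages and B cells.

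**Figure D3:**
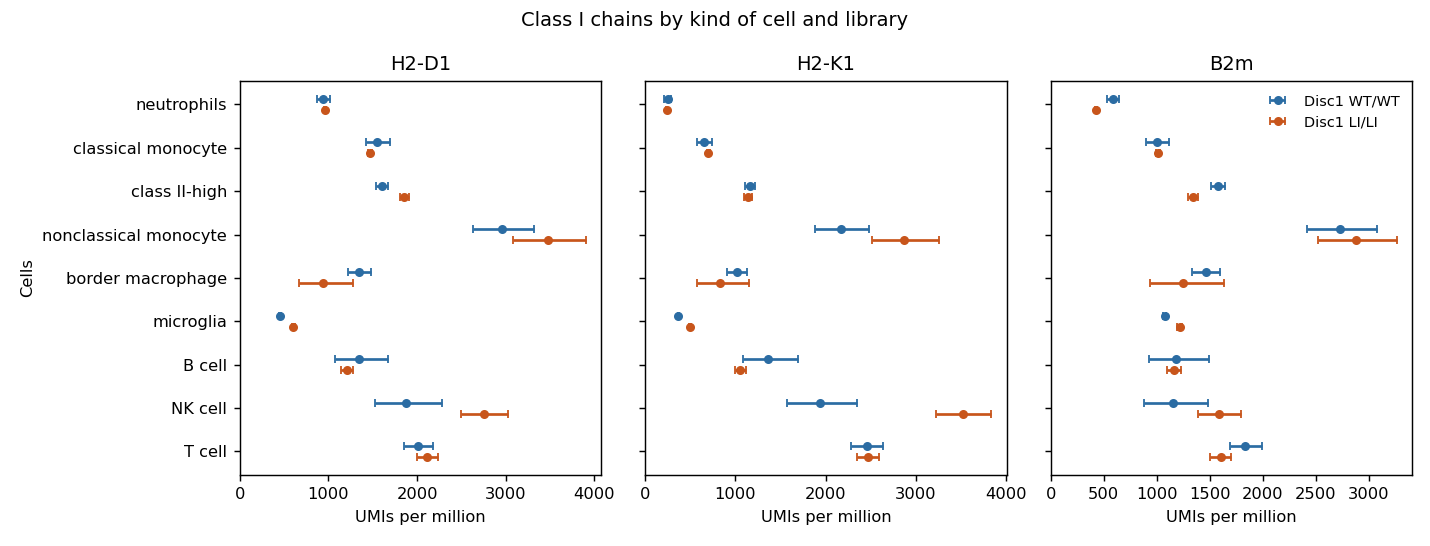
Level of H2-D1, H2-K1 and B2m (CPM, linear axis) in 9 kinds of cells of the Disc1 WT/WT (blue) and Disc1 LI/LI (orange) library, with exact 95% Poisson intervals. Nonclassical monocytes (H2-D1 at 2955 and 3478) lay far to the right of microglia (456 and 606).

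Against neutrophils of the same library, microglia had more B2m, with log2 ratios of 0.88 (0.74 to 1.03) in Disc1 WT/WT and 1.51 (1.47 to 1.55) in Disc1 LI/LI. Tapbp was at 0.94 and 1.09, Tap2 at 0.72 and 1.29 and H2-T23 at 0.60 and 0.87. These 4 of the 6 members with enough UMIs were at least 1.5-fold higher in microglia in both libraries, as were 60.7% of 3332 genes. H2-K1, at 0.56 and 1.06, fell just under the fold in Disc1 WT/WT. H2-D1 alone was at least 1.5-fold lower in microglia in both libraries, at -1.05 (-1.16 to -0.93) and -0.67 (-0.72 to -0.63), as were 15.7% of all genes.

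On the same log2 scale the median of all genes was 0.95 and 1.14 higher in microglia. The medians of the 6 members were 0.66 and 1.07. TMM scaling shifted these ratios by -0.89 and -1.32, which left none of the 6 genes at least 1.5-fold higher and turned the signs of H2-K1, H2-T23 and Tap2 in both libraries. H2-D1 was lower in microglia in both libraries in all 17 alternatives, between -1.99 and -0.65. Whether microglia hold more of the other members than neutrophils therefore depended on the scaling. H2-D1 stayed lower, which TMM could not have changed, since it moved every such ratio downward.

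Against the other cells, 2 of 6 members were at least 1.5-fold lower in microglia in both libraries, H2-D1 (-1.64 and -1.23) and H2-K1 (-1.55 and -0.78), as were 15.9% of 3261 genes, and 0 were higher, as were 31.3%. Neutrophils were at least 1.5-fold lower than the other cells in both libraries for 4 of 5 members (B2m, H2-K1, H2-T23 and Tapbp), as were 48.2% of 2623 genes.

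**Figure D4:**
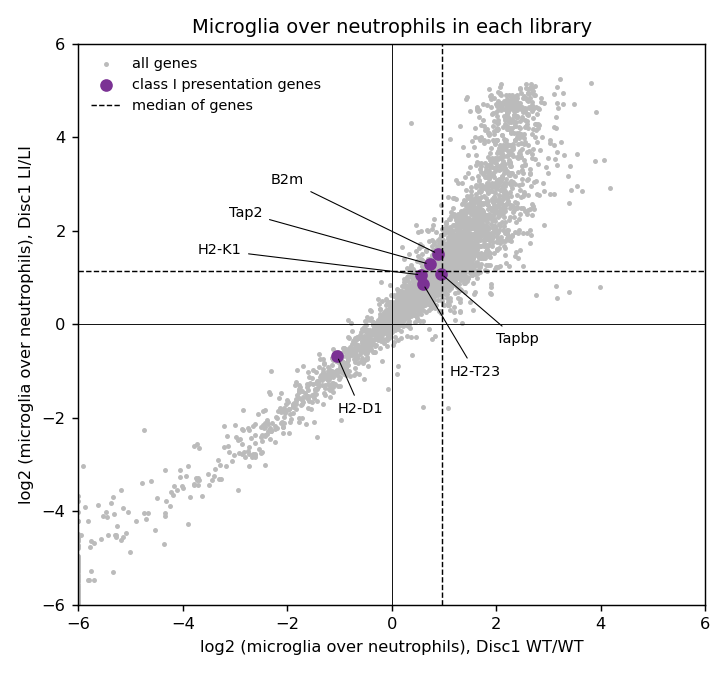
log2 ratio of microglia over neutrophils for all genes with at least 50 CPM (grey) in the Disc1 WT/WT (horizontal) and the Disc1 LI/LI (vertical) library, with the class I presentation genes in purple. Values beyond 6 are drawn at the edge and dashed lines are the medians of all genes (0.95 and 1.14). H2-D1, at -1.05 and -0.67, lay apart from the other 5, which lay near or under the medians apart from B2m and Tap2 in Disc1 LI/LI.

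The number of H2-D1 UMIs per H2-K1 UMI needs no scaling to library totals, since both are counted in the same cells. In microglia it was 1.24 (1.21 to 1.27) in Disc1 WT/WT and 1.22 (1.17 to 1.27) in Disc1 LI/LI. In neutrophils it was 3.79 (3.19 to 4.52) and 4.05 (3.93 to 4.18). The 2 genotypes thus had overlapping intervals in both of these classes, and the classes differed by more than the counting error in each library. In other cells the ratio was 1.32 (1.26 to 1.38) and 1.66 (1.63 to 1.70), with intervals that did not overlap. Across 15 alternatives it stayed between 1.17 and 1.28 in microglia and between 3.75 and 5.63 in neutrophils, the highest coming from the mean over cells. In neutrophils with under 0.1% microglia rule genes it was 5.23 and 4.26.

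Classical monocytes followed neutrophils, at 2.38 (2.03 to 2.80) and 2.10 (2.04 to 2.16). Class II-high cells were at 1.38 (1.29 to 1.47) and 1.63 (1.55 to 1.71), with intervals that did not overlap. Nonclassical monocytes were at 1.36 (1.14 to 1.64) and 1.21 (1.02 to 1.45) and border macrophages at 1.32 (1.14 to 1.53) and 1.14 (0.708 to 1.85). Neither resident macrophages nor nonclassical monocytes were thus told apart from microglia. T cells were under 1 in both libraries, at 0.819 (0.735 to 0.913) and 0.859 (0.798 to 0.924), and NK cells at 0.971 (0.729 to 1.29) and 0.781 (0.686 to 0.889). In these libraries the ratio thus ran from more H2-D1 than H2-K1 in granulocytes and classical monocytes to less in T cells.

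**Figure D5:**
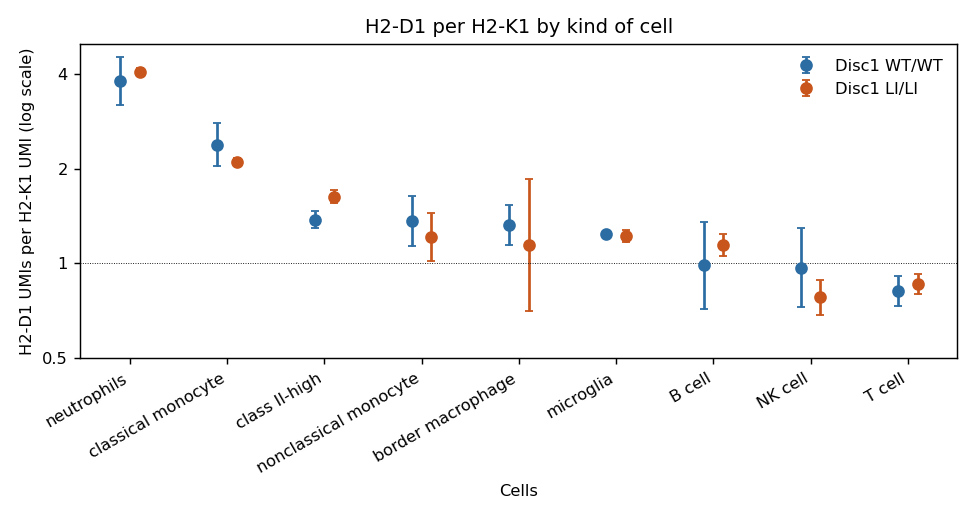
H2-D1 UMIs per H2-K1 UMI (log axis) by kind of cell in the Disc1 WT/WT (blue) and Disc1 LI/LI (orange) library, with exact 95% intervals for counting error. Neutrophils lay at 3.79 and 4.05, classical monocytes at 2.38 and 2.10, microglia at 1.24 and 1.22 and T cells at 0.819 and 0.859.

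B2m per heavy chain (H2-D1 plus H2-K1) was the highest in microglia of the 3 classes, at 1.31 (1.28 to 1.33) in Disc1 WT/WT and 1.11 (1.07 to 1.14) in Disc1 LI/LI. It was 0.489 (0.432 to 0.553) and 0.355 (0.347 to 0.364) in neutrophils and 0.577 and 0.464 in other cells. In each of the 3 classes the Disc1 LI/LI value was the lower, with intervals that did not overlap. In the neutrophils with under 0.1% microglia rule genes, however, it was 0.360 (0.303 to 0.427) and 0.335 (0.327 to 0.344), with overlapping intervals. Within the other cells it was lower in Disc1 LI/LI for class II-high cells (0.571 and 0.448) and cells in no gate (0.963 and 0.565). For each of these the intervals did not overlap. It was also lower, with overlapping intervals, in T cells (0.411 and 0.350), NK cells (0.303 and 0.253) and nonclassical monocytes (0.534 and 0.454). Granulocyte progenitors went the same way, with overlapping intervals. So did hemoglobin-rich cells, on only 7 and 1 B2m UMIs. Classical monocytes (0.454 and 0.467), B cells (0.436 and 0.513) and border macrophages (0.619 and 0.707) had higher values in Disc1 LI/LI, with overlapping intervals. In microglia the lower Disc1 LI/LI value followed from heavy chains that differed more between the libraries than B2m did.

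Interferon-high microglia (at least 0.3% of UMIs from 10 interferon-induced genes, none of them a member) numbered 17 and 10. Tap1 stood at 129 (64.3 to 230) against 20.7 CPM in the remaining Disc1 WT/WT microglia and at 180 (66.0 to 392) against 24.5 in Disc1 LI/LI. The log2 ratios were 2.64 (1.63 to 3.49) and 2.88 (1.42 to 4.03), on 11 and 6 Tap1 UMIs. B2m was at 0.31 (0.04 to 0.58) and 0.52 (0.12 to 0.89), H2-K1 at 0.76 (0.34 to 1.15) and 0.60 (-0.03 to 1.16) and H2-D1 at 0.27 (-0.17 to 0.69) and 0.80 (0.27 to 1.28). Tap2, the partner of Tap1, was at -0.82 (-3.10 to 0.73) and -0.02 (-3.07 to 1.84), too few UMIs to tell. Leaving these cells out changed no call on the members, though so few cells could hardly move the summed levels. Microglia high in disease-associated genes numbered 7 and 3, too few for levels.

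Other genes of the pathway were taken from fixed lists. All 5 genes of the immunoproteasome and its activator, which make the peptides that class I prefers, had intervals wholly above 0 in microglia, from Psme1 at 0.12 and Psmb9 at 0.14 to Psme2 at 0.19 and Psmb10 at 0.28, with a median of 0.18, against 28.7% of all genes and a median of 0.20 in the shortest genes. Psmb5 and Psmb6, the constitutive counterparts of inducible subunits, were at 0.25 and 0.26. Of 13 other class I genes found, 1 had enough UMIs in microglia, H2-M3, which presents formylated peptides, at 59.6 and 77.6 CPM and a ratio of 0.38. In neutrophils only H2-Q10 did, at 74.9 and 75.4, an assignment left uncertain by the likeness of the Q genes.

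Of 10 regulators with enough UMIs in microglia 9 had intervals wholly below 0 and 0 above, against 51.0% and 28.7% of all genes, among them the interferon receptor chain Ifnar1 (-0.87), with its partner chain Ifnar2 at 0.05 and Irf2 at -0.08 the highest. Their median was -0.32, where that of genes spanning 23621 to 56506 bases was -0.26 and that of the longest -0.47. The part of gene length in the regulators' ratios was not tested. Of 5 peptide loading helpers 2 were above 0, Erp29 (0.18) and Calr (0.05), and 3 below, with Erap1, the trimming peptidase, at -0.79 and Canx, the chaperone calnexin, at -0.57. All 6 class II genes were above 0, with Cd74 at 0.68 and H2-Aa at 0.38 the highest and H2-Eb1 and H2-DMb1 at 0.20 and 0.22.

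In neutrophils 4 class II genes were far higher in Disc1 LI/LI, from H2-Eb1 at 2.52 and H2-Ab1 at 2.97 to H2-Aa at 2.97 and Cd74 at 3.85, on 5 to 11 UMIs in Disc1 WT/WT, where 6.17% of all genes were at least 1.5-fold higher. H2-DMa and H2-DMb1, under 50 CPM in both libraries, were both at -0.87, with intervals below 0. Neutrophils do not usually make class II. Class II-high cells and B cells numbered 330 and 175 in that library, against 272 and 15, and their part in this difference was not tested. The 7 regulators counted in neutrophils had a median of -0.81, against -0.74 in the 608 longest genes, and the part of gene length was not tested. All 7 had intervals below 0, against 48.8% of all genes, with Irf8 at -1.86 and Ifngr1 at -1.17 the lowest. Microglia held more of both than neutrophils did, at log2 ratios of 2.17 and 3.93 for Irf8 and 2.27 and 3.19 for Ifngr1, and the part of microglia RNA in these differences was not tested. The 3 receptors of myeloid cells with enough UMIs, of which Pirb binds class I, were at least 1.5-fold lower in microglia than in neutrophils in both libraries, as were 15.7% of all genes, Pirb at -3.52 and -3.20, Lilrb4a at -5.80 and -5.47 and Pilra at -2.70 and -2.42. TMM scaling lowers these ratios further.

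Over 10 points (3 classes, T cells and class II-high cells in each library), the genes whose level was most like the mean of B2m, H2-D1 and H2-K1 were H2-K1 itself (Pearson r of 0.991), H2-T22 (0.986), Klrd1 (0.979), a chain of the NK cell receptor for Qa-1, Tpt1 (0.969) and Rps13 (0.969), of 2656 genes. The points share libraries and cells, and H2-K1 is a part of the mean. Among the members, B2m and Tapbp followed each other at 0.909, H2-D1 and H2-K1 at 0.795 and H2-D1 and Tapbp at 0.174.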

How the data were processed

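The deposited values were counts of unique molecular identifiers (UMIs) per gene and cell barcode. Per the file headers they came from Cell Ranger 6.1.2, and the authors mapped 3′ reads to mm10 with STAR, collapsed UMIs and deposited the barcodes called as cells. Which chip and kit version served which genotype is not given in the sources used here. Reads matching several genes are not counted by Cell Ranger.

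UMIs were summed per class and library and divided by the class total (CPM). Totals were 33601957 UMIs in 7038 barcodes for Disc1 WT/WT and 47731571 in 7834 for Disc1 LI/LI, and the filter removed 6 and 17. Intervals were exact Poisson for levels, Clopper-Pearson for ratios and exact binomial for shares, at 95%, and cover counting error only. No doublet caller was run, and an alternative left out the 5% of cells with the most UMIs. Simulated counts were drawn as Poisson, the spread that the intervals assume. There the ratio intervals held the true value for 95.2% of 3556 microglia genes, 95.4% of 2433 neutrophil genes and 95.6% of 3256 other-cell genes. The draws check the calculation only, not the spread of the real counts.

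Genes entered counts at 50 CPM or more in at least 1 library, and a fold of 1.5 was the rule of size. All 8 members are named. Of the wider lists the 2 highest and 2 lowest ratios in microglia or neutrophils are named, apart from 1 gene that is not reported here, and genes most alike are the 5 of highest r. Members, classes and lists were chosen with earlier results of these data known. Alternatives changed cell filters, class limits, scaling (edgeR 4.0.16 TMM), averaging, depth and the cells left out, and 6 entries were added after seeing the data. Coordinates were matched by Ensembl gene identifier, for 32235 of 32285 genes. Python 3.11.15, scipy 1.17.1 and R 4.3.3 were used.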

Additional observations from a re-analysis of the deposited data

Results flagged for a closer look

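The log2 ratio of Disc1 LI/LI over Disc1 WT/WT lay on opposite sides of 0 in different cell classes for B2m and H2-K1, each with a counting interval that left out 0. For H2-K1 the ratio in microglia was 0.76 above that in other cells (0.43 against -0.33). For B2m the ratio in microglia was 0.63 above that in neutrophils (0.18 against -0.45), and likewise 0.63 above that in other cells (0.18 against -0.45). With 1 library for each genotype, these differences were not tested. The neutrophil and other-cell values turned sign with TMM scaling, to 0.10 for B2m in neutrophils, 0.033 for B2m in other cells and 0.15 for H2-K1 in other cells. The microglia values were above 0 in all 17 alternatives, though those that changed only neutrophils could not move them. The Disc1 WT/WT neutrophils held microglia markers at 20.5% of the microglia level, and the other cells held different kinds of cells in the 2 libraries. The part of either in these differences was not tested beyond the values given.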

How the results depend on the processing

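Over 17 alternatives 855 values were recomputed. Of these 739 stayed within the counting interval (counts within 1.5 times), 100 moved and 16 whose reported interval left out 0 changed sign. A further 40 values whose reported interval included 0 also took the opposite sign. The cause was not tested. The count of members at least 1.5-fold apart between genotypes was 0 in microglia in all 17, though alternatives that changed only neutrophils could not move it. The count became 1 in neutrophils with cells thinned to 1000 UMIs and 1 in other cells with microglia markers of at least 1%. The count at least 1.5-fold higher in microglia than in neutrophils, 4 as reported, was 0 with TMM, 2 as a mean over cells and 2 with thinning. The count at least 1.5-fold lower was 1 in all 17. TMM raised the log2 ratios between genotypes by 0.13 in microglia, 0.54 in neutrophils and 0.48 in other cells, which turned B2m in neutrophils to 0.10 and, in other cells, B2m to 0.033, H2-K1 to 0.15, H2-T23 to 0.11 and Tapbp to 0.24. With microglia markers of at least 1%, H2-K1 in other cells turned to 0.34 and H2-T23 to 0.0070. Between microglia and neutrophils TMM turned, in Disc1 WT/WT, H2-K1 to -0.32, B2m to -0.0032, H2-T23 to -0.29 and Tap2 to -0.16, and in Disc1 LI/LI, H2-K1 to -0.26, H2-T23 to -0.45, Tap1 to -0.70, Tap2 to -0.032 and Tapbp to -0.23. No replicate could be left out, since each genotype has 1 library. No paired analysis was possible because each genotype has 1 library. Depth limits Nlrc5 in every class, and Tap1, Tap2, Tapbp and H2-T23 in the 116 Disc1 WT/WT neutrophils, each with at most 40 UMIs.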
